A study of Mus musculus with 5 samples.

Results

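The 7 genes described here encode proteins that Paneth cells pack into secretory granules. They are the alpha-defensins Defa3, Defa20 and Defa21, the lysozyme Lyz1, the ribonuclease angiogenin 4 (Ang4), the lectin intelectin 1 (Itln1) and the protease matrilysin (Mmp7). Probes were matched to these symbols through their RefSeq accession, which gave 8 of the 35078 gene probes on the array, and the genes are 7 of 15597 with a named probe. The genes were selected on their levels and genotype differences in these same 5 arrays. Their levels and differences are therefore given as descriptions, with no test.

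RNA came from mouse colon, taken at day 56 from areas without tumours, and each of the 5 samples was read on its own single-colour oligonucleotide array. All mice had a C57Bl6 background, were 10 weeks of age when the experiment began, and received the carcinogen azoxymethane (AOM, 7.4 mg/kg) on day 0 and then 2 cycles of the irritant dextran sulfate sodium (DSS), added to damage the colon epithelium, the first for 7 days from day 7 and the later one for 5 days. The 2 villin-TLR4 samples, 1 female and 1 male, were from mice given 1.5% DSS, and the 3 WT littermate samples, all female, from mice given 3% DSS, so that genotype and DSS concentration cannot be told apart. Villin is expressed in the epithelium of both small intestine and colon, and its promoter drives the TLR4 transgene there; TLR4 senses lipopolysaccharide of bacteria, and the labels do not say which form of TLR4 the transgene carries. The labels do not say that each WT littermate sample came from its own mouse, so the spread between those samples may be technical.

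Paneth cells sit at the base of small intestinal crypts and secrete antimicrobial proteins into the lumen. The healthy mouse colon has few or none of them, and their appearance in the colon after chronic injury is known as Paneth cell metaplasia. In mice, alpha-defensins are made as inactive precursors that Mmp7 cleaves. Lyz1 is the lysozyme of Paneth cells, while the closely related Lyz2 belongs to macrophages and other myeloid cells. Ang4 and Itln1 are made by Paneth cells and also by goblet cells, and Mmp7 is also made by injured and neoplastic epithelium. Because whole tissue was measured, fewer cells of a type and less RNA per cell cannot be told apart.

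Values below are normalised log2 intensities per array, mean ± SD per group (n = 2 villin-TLR4 and n = 3 WT littermate), and a difference is the villin-TLR4 mean less the WT littermate mean, with the SE of the fit. Values of single arrays are listed in replicate order. A probe is called found where the scanner software marked its spot as such. WT littermate replicate 1 stood apart: it was dim, with 13352 gene probes found against 16380 to 19509 on the other arrays, and it carried a strong neutrophil signal. The scans fell on 3 days, and only villin-TLR4 replicate 2 and WT littermate replicate 2 shared a day across genotypes. Across all 15051 genes or unnamed probes tested with limma, 0 (0%) passed an adjusted p of 0.05, 730 had an unadjusted p under 0.05, and the median difference was 0.01. The epithelial marker list was found in full on every array, 8 of 8 genes.

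All 7 genes had a lower mean in villin-TLR4 than in WT littermates, against 49.1% of all genes tested, and the median of the 7 differences was -1.13. For 3 of the 7, Defa3, Lyz1 and Ang4, every villin-TLR4 array lay below every WT littermate array, which was the case for 12.9% of all genes; the reverse held for 0 of the 7 and 12.6% of all genes. The 7 genes did not vary as 1 block. Defa3 and Lyz1 were high on all 3 WT littermate arrays, Ang4 was high on WT littermate replicates 3 and 1, and Defa20, Defa21 and Mmp7 were high on WT littermate replicate 1 alone. The highest array was WT littermate replicate 1 for 5 genes and WT littermate replicate 3 for 2, while 32.2% and 12.7% of all genes had their highest value on these arrays. Since the genes were chosen with this contrast known, these counts support nothing beyond themselves.

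**Figure D1:**
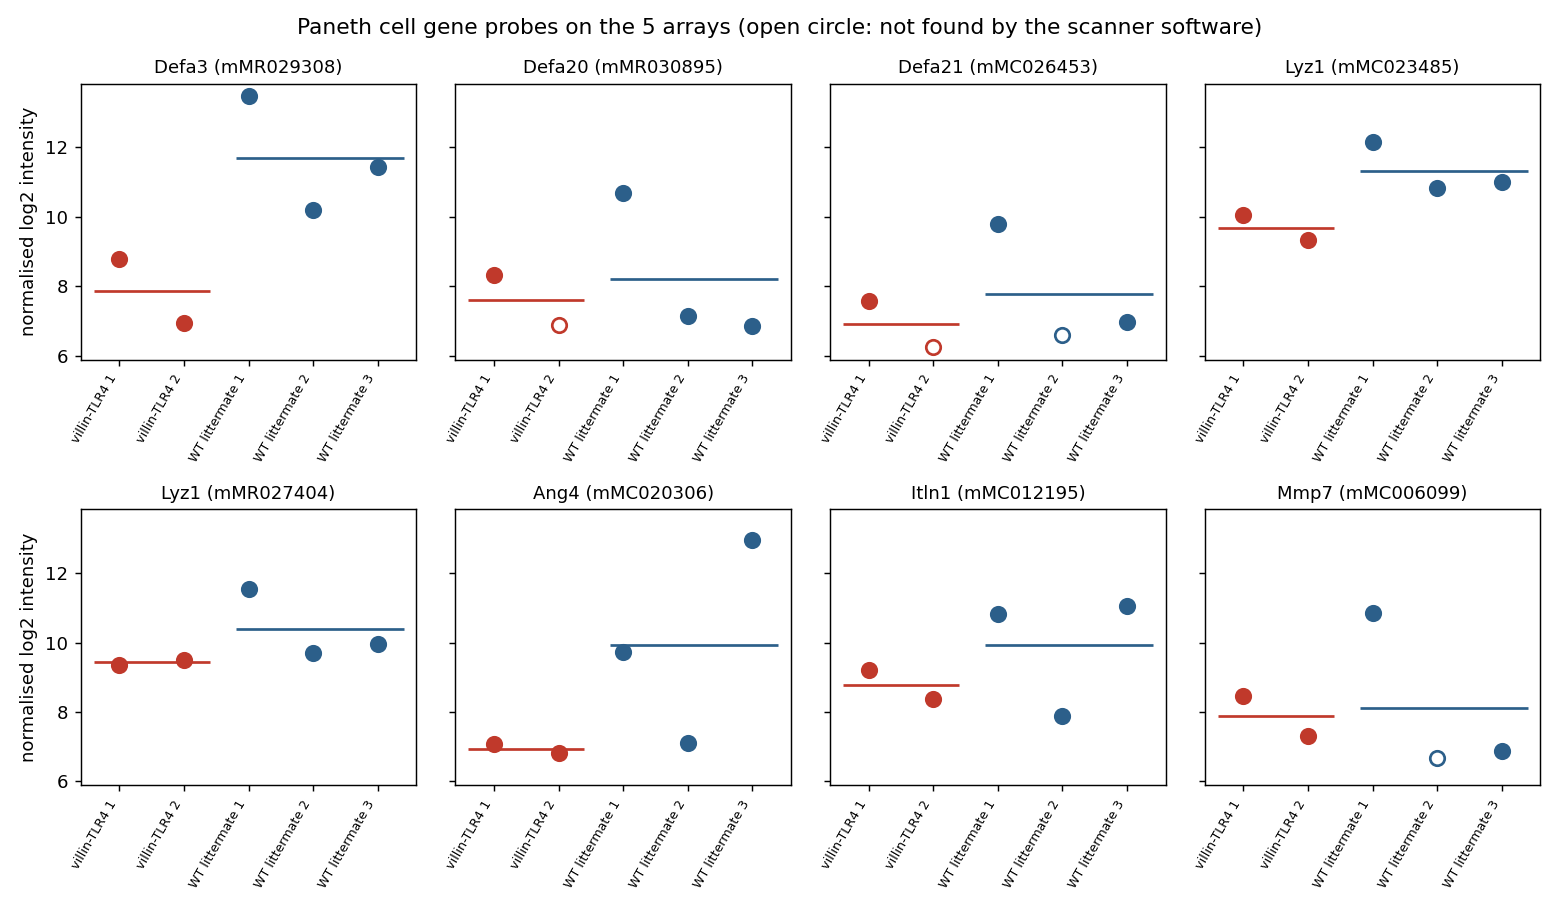
Normalised log2 intensity (vertical axis) of the 8 probes of the 7 Paneth cell genes on the 2 villin-TLR4 arrays (red) and the 3 WT littermate arrays (blue). Horizontal lines are group means, and open circles mark spots that the scanner software did not find. Defa3, both Lyz1 probes and Ang4 show no overlap between the groups. Defa20, Defa21 and Mmp7 are highest on WT littermate replicate 1 and next on villin-TLR4 replicate 1.

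Defa3 (probe mMR029308; GRCm38.p6 chr8:21287409-21288377), one of the cryptdins, as mouse alpha-defensins are called, had the largest difference of the 7. It read 8.78 and 6.94 on villin-TLR4 replicates 1 and 2, against 13.48, 10.21 and 11.44 on WT littermate replicates 1, 2 and 3. The groups were separated by 1.43, and the 2 villin-TLR4 arrays themselves differed 3.58-fold. Mean levels of 7.86 ± 1.30 for villin-TLR4 against 11.71 ± 1.65 for WT littermates gave a difference of -3.85 ± 0.99 (SE), or 14.4-fold on the intensity scale. The probe was found on all 5 arrays, and its background-subtracted intensity ran from 41 on villin-TLR4 replicate 2 to 8318 on WT littermate replicate 1, where it was highest before any normalization although that array was the dimmest. Between the 2 arrays scanned on 1 day it was -3.27.

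Defa20 (probe mMR030895; chr8:21509258-21510237) followed another pattern. It read 8.33 and 6.88 in villin-TLR4, against 10.67, 7.14 and 6.84 in WT littermates. WT littermate replicate 3, which was high for Defa3, was low for Defa20. The probe was not found on villin-TLR4 replicate 2, so the lowest arrays have no order. The difference of -0.62 ± 1.17 (SE) was smaller than the spread within WT littermates (SD 2.13), and it became 0.67 without WT littermate replicate 1.

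Defa21 (probe mMC026453; chr8:21025545-21026517) was the dimmest of the 7, with a background-subtracted intensity of at most 336. It read 7.57 and 6.24 in villin-TLR4, against 9.78, 6.60 and 6.96 in WT littermates, and it was found on 1 of 2 and 2 of 3 of them. WT littermate replicate 1 was again highest and villin-TLR4 replicate 1 next. The difference of -0.88 ± 0.98 (SE) became 0.15 without WT littermate replicate 1.

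The sequences upstream of Defa20 and Defa21 are shown because both genes had WT littermate replicate 1 and then villin-TLR4 replicate 1 as their highest arrays. Paneth cell defensins are known targets of Wnt signalling through TCF factors, so the hexamers CTTTGA and CTTTGT, the core of TCF binding sequences, were searched on both strands and are in capitals. Each sequence is the 250 bases before the gene's start in RefSeq, GRCm38.p6, plus strand, at chr8:21509008-21509257 and chr8:21025295-21025544.
Defa20: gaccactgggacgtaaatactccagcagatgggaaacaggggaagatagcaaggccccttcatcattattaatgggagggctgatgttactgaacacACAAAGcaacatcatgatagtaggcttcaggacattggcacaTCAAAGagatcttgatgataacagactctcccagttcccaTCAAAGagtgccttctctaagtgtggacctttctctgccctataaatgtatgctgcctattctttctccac
Defa21: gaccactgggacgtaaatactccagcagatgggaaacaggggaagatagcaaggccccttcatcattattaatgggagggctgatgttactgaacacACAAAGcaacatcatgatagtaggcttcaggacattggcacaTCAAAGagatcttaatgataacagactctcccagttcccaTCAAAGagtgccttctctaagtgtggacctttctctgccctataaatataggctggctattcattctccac
The windows were identical at 245 of 250 bases (98.0%). Counted from 1 at the 5′ end, with the Defa20 base first, the 5 differences were G153A, G227A, T230G, C235G and T242A. Both windows held 3 hexamers at the same places, starting 153, 111 and 71 bases before the gene's start, all on the minus strand, and a TATAAA starting 31 bases before it. Of 32851 upstream windows of the same length, 27.6% held CTTTGA or CTTTGT and 12.4% held TATAAA. These matches are descriptions of the letters. Windows were at hand for 6 of the 7 genes, Defa3 being the exception, and 4 of the 6 held either hexamer: Defa20, Defa21, Lyz1 and Ang4.

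The alpha-defensins form a cluster of closely related genes, 28 of them with a numbered Defa symbol in the RefSeq table, of which 6 had a named probe. The probe sequences are not given in the sources used here, so how far a probe also reads other members of the cluster is uncertain, and Defa20 and Defa21 should not be read as independent of each other. Of the 3 alpha-defensins beyond the 7 genes, Defa5 and Defa31 were not found on any array. Defa29 (probe mMC025539), a cryptdin-related gene, read 6.61 and 6.08 on the villin-TLR4 arrays, where it was not found, and 10.96, 7.36 and 8.68 on the WT littermate arrays, where it was found on all 3. The mean over the WT littermate arrays was 3.88-fold above a floor set for the villin-TLR4 arrays. That floor is the lowest found signal over 2 background SDs above background on each array, unless the probe itself read higher. It stood at 6.92 and 7.17 on villin-TLR4 replicates 1 and 2, close to the 7.36 of WT littermate replicate 2. The probe was kept through the WT littermate arrays alone, which favours a higher level there. The adjusted p was 0.87 by limma. Without WT littermate replicate 1 the fitted difference went from -2.65 to -1.86.

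Mmp7 (probe mMC006099; chr9:7692090-7699585), the activating protease of mouse alpha-defensins, read 8.45 and 7.30 in villin-TLR4, against 10.84, 6.66 and 6.87 in WT littermates. It was not found on WT littermate replicate 2, and villin-TLR4 lay above WT littermate replicates 2 and 3. The difference was -0.25 ± 1.26 (SE) over all arrays and 1.24 without WT littermate replicate 1. Mmp7 was thus low where Defa3 remained high: on WT littermate replicate 3 Defa3 was 6.34-fold above villin-TLR4 replicate 1, while Mmp7 was at 0.335 of its level there. The 250 bases before the Mmp7 start are shown for contrast with the defensin windows (chr9:7691840-7692089, plus strand), and hold neither hexamer.
Mmp7: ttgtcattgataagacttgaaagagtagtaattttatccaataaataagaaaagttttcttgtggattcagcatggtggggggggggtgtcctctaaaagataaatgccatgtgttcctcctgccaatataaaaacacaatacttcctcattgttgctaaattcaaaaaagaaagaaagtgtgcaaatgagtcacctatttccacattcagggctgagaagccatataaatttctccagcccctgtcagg
This window held 1 TGANTCA, the AP-1 core, starting 63 bases before the gene's start, a motif present in 6.75% of all windows.

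Lyz1 (chr10:117287795-117292868), which hydrolyses bacterial cell walls, had 2 probes, and both were found on all 5 arrays. The brighter, mMC023485, read 10.04 and 9.32 in villin-TLR4, against 12.17, 10.83 and 11.01 in WT littermates. Its means were 9.68 ± 0.51 and 11.33 ± 0.73, a difference of -1.65 ± 0.47 (SE), or 3.15-fold, and -1.51 within the shared scan day. The groups did not overlap, with a gap of 0.79. The other probe, mMR027404, pointed the same way with a smaller difference, -0.97, a gap of 0.19 and -0.19 within the shared scan day, so the size of the Lyz1 difference depended on the probe. After normalization the brighter Lyz1 probe ranked the 5 arrays in the same order as Defa3, while the other probe was lowest on villin-TLR4 replicate 1 rather than 2. Neither held before it. The background-subtracted intensity of the brighter probe was 2915 on WT littermate replicate 3 against 2643 on replicate 1. That of the other probe was 578 on villin-TLR4 replicate 2 against 840 on replicate 1.

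Lyz2, the myeloid lysozyme, was followed because its sequence is close to that of Lyz1 and probes may read both. Its brightest probe read 10.91 and 10.98 in villin-TLR4, against 12.22, 11.07 and 11.21 in WT littermates, a difference of -0.56 ± 0.39 (SE) with an adjusted p of 0.87 by limma. Its other 2 found probes gave -0.05 and -0.21, with overlap between the groups. The macrophage list as a whole ranged from 10.99 to 11.22 in villin-TLR4 and from 10.79 to 11.57 in WT littermates (mean log2 of 7 genes).

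Ang4 (probe mMC020306; chr14:51763892-51773590), a bactericidal ribonuclease, had the widest range within WT littermates of the 7. It read 7.08 and 6.81 in villin-TLR4, against 9.71, 7.12 and 12.95 in WT littermates. WT littermate replicate 3 exceeded WT littermate replicate 2 by 57.1-fold, and the latter lay only 0.04 above the higher villin-TLR4 array. The difference was -2.98 ± 1.51 (SE) over all arrays, -1.43 without WT littermate replicate 3 and -0.31 within the shared scan day. In the authors' deposited table, which lists background-subtracted intensities scaled by 1 factor per array over an unstated centre per gene, Ang4 stood at 0.086 on villin-TLR4 replicate 1, had no value on replicate 2, and was listed at 1.114, 0.095 and 9.451 on the WT littermate arrays.

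Some other ribonucleases of the RNase A family, which holds the angiogenins, were also high on WT littermate replicate 3. Of the 6 tested, 3 had their highest value there (12.7% of all genes). Ang2 and Ang5 were found on that array only, and Rnase1 read 8.17 and 7.87 in villin-TLR4, against 9.08, 8.93 and 11.41 in WT littermates (difference -1.79 ± 0.75, adjusted p of 0.87 by limma). Ang itself read 9.56 to 10.84 over the 5 arrays. Whether the Ang2 and Ang5 probes also read Ang4 transcripts was not tested. Rnase1 is the pancreatic ribonuclease and not an angiogenin, and exocrine pancreas genes also peaked on WT littermate replicate 3. The part of pancreatic RNA in the Rnase1 values was not tested. Of the 6 members of this family tested, 0 passed in either direction, 2 lay above 0 and 4 below, with a median of -0.29.

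Itln1 (probe mMC012195; chr1:171518123-171535325), which binds sugars of microbial surfaces, read 9.21 and 8.36 in villin-TLR4, against 10.82, 7.88 and 11.06 in WT littermates. WT littermate replicates 1 and 3 were high, and replicate 2 was the lowest of all 5. The difference of -1.13 ± 0.96 (SE) was within the spread of WT littermates (SD 1.77), and within the shared scan day the sign turned, to 0.49. In these arrays Itln1 and Ang4 had the same highest and next-highest array.

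The genes most like each of the 7 were taken from 319 named genes with an SD of at least 1 over the 5 arrays, by Pearson's r over those 5 arrays, given as a description. For Defa3 the nearest were Lyz1 (r = 0.99), Defa29 (0.96), Morc4 (0.96) and the lectin Lgals2 (0.93), and the same genes led for Lyz1. For Mmp7 they were the stromelysin Mmp10 (0.99), Defa20 (0.98), the collagenase Mmp13 (0.98) and the acute-phase gene Saa3 (0.97). For Defa20 they included Mmp7, Defa21, Mmp10 and the neutrophil gene S100a9 (0.97). For Ang4 they were colipase Clps (0.96), Rnase1 (0.95), the elastase Cela3b (0.92), Gp2 (0.89) and the goblet cell product Retnlb (0.89), and for Itln1 they were Ang4 (0.87), Retnlb (0.86) and Clps (0.85). With 5 points, 1 array can set such an r.

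**Figure D2:**
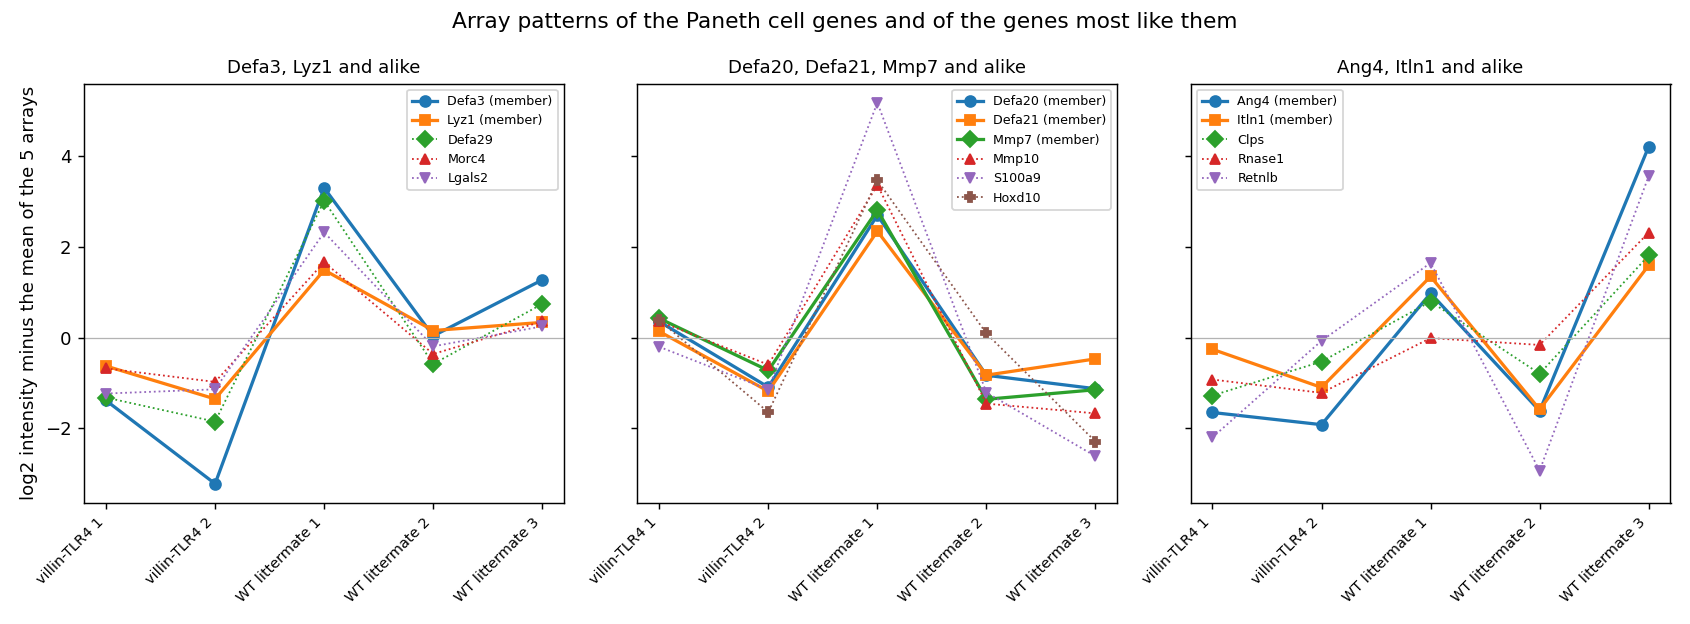
Log2 intensity minus the mean of the 5 arrays (vertical axis) for each array, with the Paneth cell genes as solid lines and other genes as dotted lines; the 3 sets and Hoxd10 were chosen after the values were seen. Defa3 and Lyz1 are above their mean on all 3 WT littermate arrays, Defa20, Defa21 and Mmp7 peak on WT littermate replicate 1, and Ang4 peaks on WT littermate replicate 3.

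Other Paneth cell genes were described from lists chosen with earlier results known. Of 14 further granule and secreted products, 10 had a named probe and 9 were tested; 0 passed in either direction, 3 lay above 0 and 6 below, with a median difference of -0.55. That median was -0.32 without WT littermate replicate 1, -0.31 without WT littermate replicate 3 and 0.27 with scan day as a block. The pentraxin Mptx1 read 13.28 and 13.01 in villin-TLR4, against 11.57, 14.42 and 15.65 in WT littermates, lowest on the array where Defa3 and Lyz1 were highest. Clps, which Paneth cells share with the exocrine pancreas, gave -1.51 ± 0.73 (SE) and was highest, at 13.46, on WT littermate replicate 3. Of 20 regulators and niche signals of Paneth cells, 18 were tested; 0 passed in either direction, 10 lay above 0 and 8 below, with a median of 0.05, which became -0.12 without WT littermate replicate 1. Sox9, a transcription factor that Paneth cells need, read 11.57 and 11.43 in villin-TLR4 and 11.05, 12.29 and 11.46 in WT littermates, and Nod2, a sensor of bacterial peptidoglycan, gave 0.73 with no overlap between the groups and an adjusted p of 0.87 by limma, while its other probe, found on 2 arrays, gave 0.05 with overlap.

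Some markers of the small intestine were high on the same arrays as Defa3 and Lyz1, and others were not. Apoa1 and Apoa4, apolipoproteins of small intestinal enterocytes, read 6.39 and 6.84, and 8.37 and 7.89, on the villin-TLR4 arrays. On the WT littermate arrays Apoa1 read 11.68, 10.03 and 12.26 and Apoa4 10.96, 10.70 and 11.79, so that all 3 were high, as for Defa3. Of 30 small intestinal enterocyte genes, 24 had a named probe and 19 were tested. Of those, 0 passed in either direction, 3 lay above 0 and 16 below (49.1% of all genes), with a median of -0.49. The groups did not overlap for 6, all below, while 12.9% of all genes lay below without overlap and 12.6% above. Some of the 6, Apoc3 included, were found on WT littermate arrays only and were kept through that group. On WT littermate replicate 1, where Defa3 was highest, 7 of the 19 were highest (32.2% of all genes). Slc5a1, Mep1a and Mep1b were lowest there, at 9.59, 9.18 and 10.29. The mean log2 of the list ranged from 7.89 to 8.02 in villin-TLR4 and from 8.49 to 9.16 in WT littermates. Several of these genes are also expressed in colon, and of those with a probe Fabp1 and Slc10a2 were not found on any array. Their part in the Defa3 and Lyz1 result was not tested.

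Exocrine pancreas genes peaked on the same array as Ang4. Of 24 such genes 17 were tested, and 16 lay below 0 (49.1% of all genes). On WT littermate replicate 3, the array with the highest Ang4 and Itln1, 15 had their highest value (12.7% of all genes). Several of the 17, Cela2a, Pnlip and Cpa1 included, were found on WT littermate arrays only. The filter for found probes kept these through that group, so their place in the counts was set in part by it. The mean log2 of that list was 7.80 and 7.85 in villin-TLR4 and 8.49, 9.53 and 12.15 on WT littermate replicates 1, 2 and 3. All 18 members with a probe were found on replicate 3, against 8 on each villin-TLR4 array. Cela2a, a pancreatic elastase, read 14.17 there and 8.20 on WT littermate replicate 1, so that it did not share the peak of Defa3. The part of pancreatic RNA in the Ang4 and Itln1 values was not tested.

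Neutrophil genes peaked on the same array as Defa20, Defa21 and Mmp7. The mean log2 of the 6 tested was 11.19 on WT littermate replicate 1 and 6.93 to 8.09 on the other 4 arrays, and all 6 were highest there. S100a9 read 14.33 on that array against 6.52 to 8.94 elsewhere. Mouse neutrophils are not known to make alpha-defensins. Of the 12 neutrophil genes, 11 were found on WT littermate replicate 1. Camp, Ngp and Mpo were found on that array only, while Elane was not found on any array. The part of neutrophils in the defensin values of that array was not tested.

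**Figure D3:**
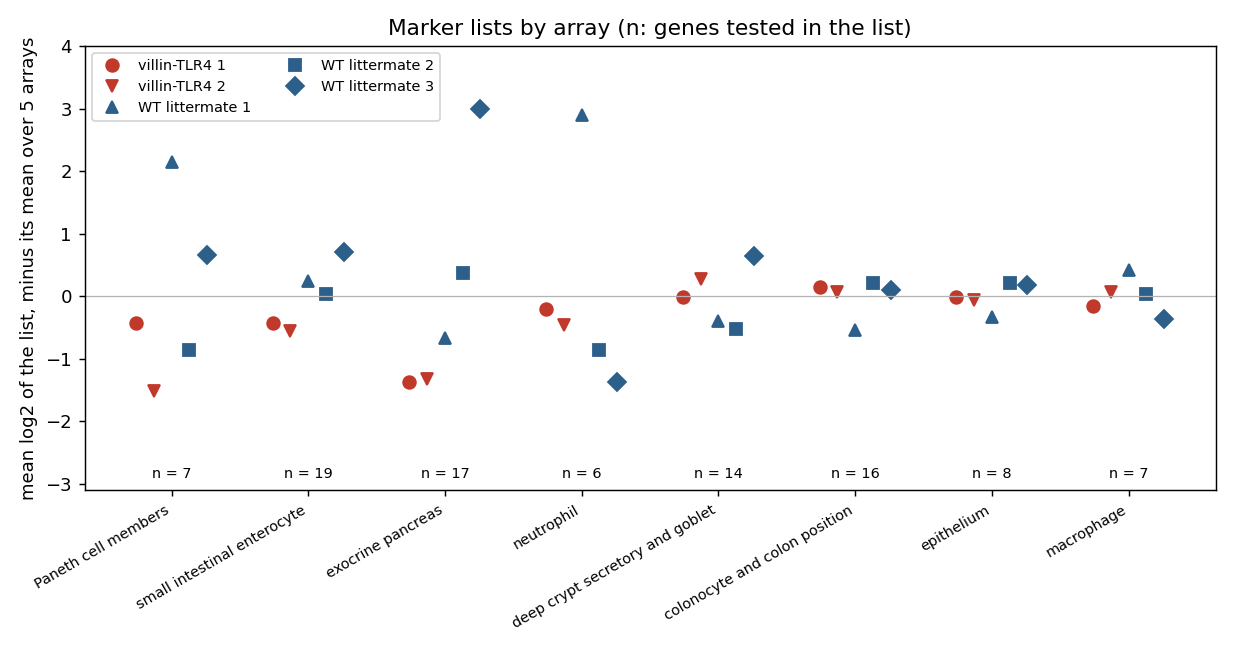
Mean log2 intensity of each marker list minus its mean over the 5 arrays (vertical axis), with 1 symbol per array and the number of genes tested under each list. The Paneth cell genes and the neutrophil list are highest on WT littermate replicate 1, the exocrine pancreas list is highest on WT littermate replicate 3, and the small intestinal list lies higher on all 3 WT littermate arrays than on both villin-TLR4 arrays.

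Genes that mark position along the gut also differed between arrays of 1 genotype. Hoxd10, a posterior Hox gene, read 9.35 and 7.32 in villin-TLR4, against 12.44, 9.06 and 6.67 in WT littermates, where it was not found on replicate 3. Hoxd13 read 8.59 and 6.91, and 8.64, 8.10 and 6.43, and was not found on villin-TLR4 replicate 2 or WT littermate replicate 3, and Hoxb13 read 10.82 and 9.92, and 10.97, 9.82 and 9.29. After normalization all 3 were highest on WT littermate replicate 1, next on villin-TLR4 replicate 1 and lowest on WT littermate replicate 3. Before it, Hoxd13 and Hoxb13 were brighter on villin-TLR4 replicate 1, with background-subtracted intensities of 446 and 2333. On WT littermate replicate 1 these were 132 and 944. The other Hoxb13 probe was not found on WT littermate replicates 1 and 3 and read lowest, at 6.30, on replicate 1. Defa20, Defa21 and Mmp7 shared the 2 highest arrays, and Ang4 and Itln1 were highest on the array where these Hox genes were lowest. Over the 16 tested genes of colonocytes and colon position, 0 passed in either direction, 10 lay above 0 and 6 below, or 8 and 8 without WT littermate replicate 1. The labels do not give the position along the colon from which tissue was taken, and its part in these values was not tested.

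Goblet and deep crypt secretory genes, the colonic neighbours of the Paneth cell lineage, had a direction that varied with the arrays used and their weights. Of 14 tested, 12 lay above 0 and 2 below, with a median of 0.34, and 0 passed in either direction. Without WT littermate replicate 1, 9 lay above 0 and 5 below, with a median of 0.16, and with array weights 6 and 8, with a median of -0.07. Kit, a marker of deep crypt secretory cells, read 10.19 and 10.00 in villin-TLR4, against 6.76, 8.83 and 9.80 in WT littermates. It was lowest on WT littermate replicate 1, where Defa3 was highest, but its probe was not found on that dim array. Tff3, a goblet cell trefoil peptide, gave 0.83 ± 0.34 (SE) without overlap between the groups and an adjusted p of 0.87 by limma. Retnlb, made by goblet cells after bacterial or inflammatory stimulation, read 8.35 and 10.49 in villin-TLR4 and 12.21, 7.62 and 14.12 in WT littermates, with the peak on WT littermate replicate 3 that Ang4 and Itln1 had. Of the stomach markers 9 had a probe, 6 were not found on any array, and Tff2, the only 1 tested, read 7.14 to 9.98.

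Without WT littermate replicate 1, the differences of Defa3, Lyz1, Ang4 and Itln1 were -3.03, -1.21, -3.12 and -0.65, while those of Defa20, Defa21 and Mmp7 were above 0. The count of genes lower in villin-TLR4 thus fell from 7 to 4 of 7.

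**Figure D4:**
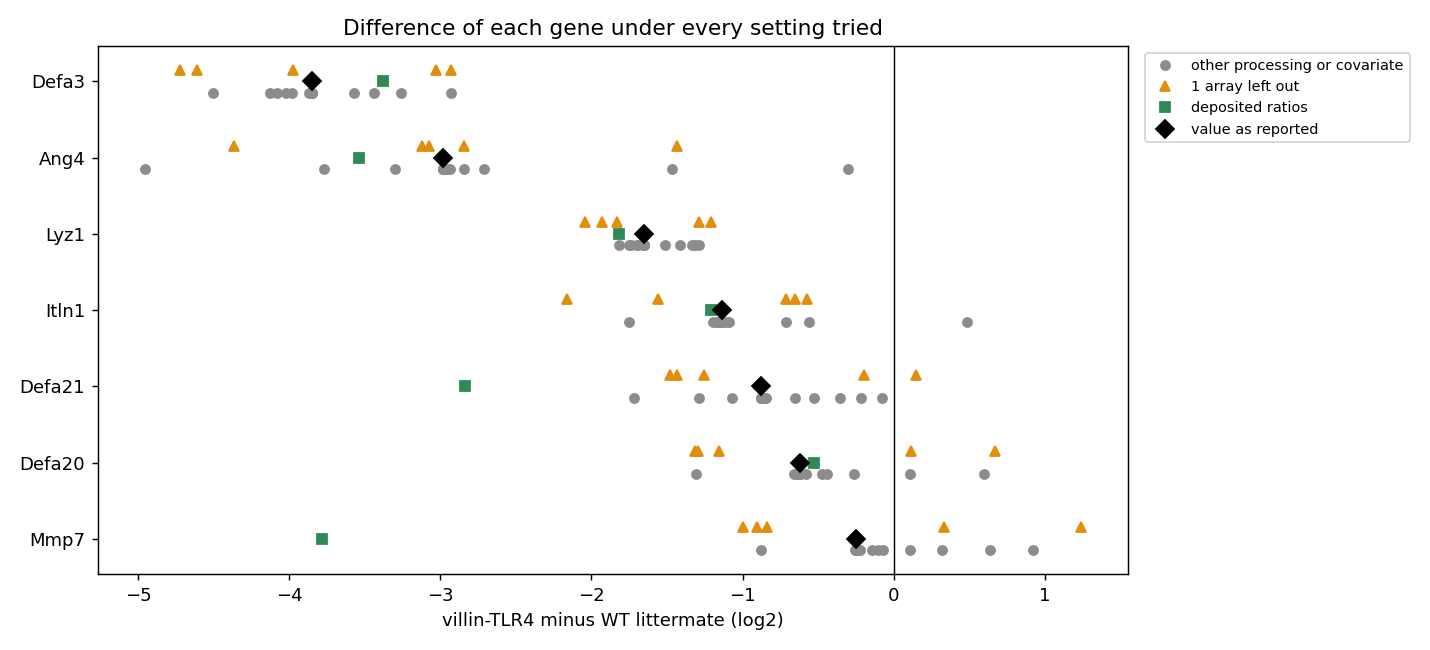
Difference between villin-TLR4 and WT littermates on the log2 scale (horizontal axis) for each gene, as reported (diamonds), with 1 array left out (triangles), under other processing or covariates (circles) and from the deposited ratios (squares). All values for Defa3, Lyz1 and Ang4 lie below 0, while those of Defa20, Defa21, Itln1 and Mmp7 fall on both sides of 0.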

How the data were processed

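Per the labels' protocols, biotin-labelled cRNA was transcribed from cDNA of total RNA. The authors deposited 1 scanner file per array with foreground and background intensity at 635 nm, read by GenePix Pro 4.1.1.4 and not normalized, per the file headers. A flag score marks each spot as found or not, per the file headers. The authors also deposited a table of ratios. Set against the scanner files it matched the background-subtracted intensity times 1 factor per array over a centre per gene, within 0.02 on the log2 scale, for 96.7% of values on WT littermate replicate 1 and at least 99.99% on the other arrays; the centre is unstated, the column medians ran from 0.98 to 1.176, and the scale is linear.

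Intensities were background-corrected (normexp, offset 50) and quantile normalized as log2 in limma 3.58.1 under R 4.3.3. Bad spots and 3802 control spots were left out. Probes found on at least 2 arrays were kept, the brightest per gene. Symbols came from the RefSeq table of GRCm38.p6, which named 23071 probes with 1 symbol and left 12007 unnamed. Villin-TLR4 was compared with WT littermates by two-sided moderated tests (lmFit, eBayes), adjusted by Benjamini-Hochberg over all 15051 tested. Precision is limited by the number of arrays. The code was tested on simulated data. Named genes were the 7 with every probe, up to 4 per list with the largest differences, and those most alike by r. The Hox genes other than Hoxd10, Defa5, Defa31, Sox9, Ang, Ang2 and Ang5 were added after their values were seen. So were Elane, Camp, Ngp, Mpo, Fabp1, Slc10a2, Slc5a1, Mep1a and Mep1b. The members and lists were chosen with earlier results of these data known. Alternatives covered background correction, normalization, the filter, the probe rule, the foreground measure, covariates, blocks, eBayes options, array weights and leaving out each array; the deposited ratios were added after seeing the data.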

Additional observations from a re-analysis of the deposited data

How the results depend on the processing

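Over 20 alternatives, or 19 where a filter removed the gene, the difference of Defa3 ran from -4.72 to -2.93 and that of Lyz1 from -2.04 to -1.21. Ang4 ran from -4.96 to -0.30, the latter with scan day as a block, and also kept its sign. Some alternatives repeat others. With scan day as a block, a difference rests on villin-TLR4 replicate 2 against WT littermate replicate 2 alone. Sex as a covariate rests on the same arrays as leaving out villin-TLR4 replicate 2, the only male. The replicate block rests on the same arrays as leaving out WT littermate replicate 3. Of 137 member differences 122 stayed within 1 residual SD of the value reported with the same sign, 3 moved further and 12 changed sign. The 122 overstate stability. The filter and eBayes alternatives returned the reported difference unchanged, as did the mean over probes for all genes but Lyz1. The residual SD was also wide, up to 2.39 for Ang4. Defa20 turned to 0.11 with sex as a covariate and to 0.60 with array weights. Itln1 turned to 0.49 with scan day as a block. Mmp7 turned to 0.11 with plain subtraction, 0.32 with sex as a covariate, 0.64 with scan day as a block and 0.92 with array weights. With 1 array left out, Defa20 ran from -1.31 to 0.67, Defa21 from -1.48 to 0.15, Mmp7 from -0.996 to 1.24 and the median of the 7 genes from -1.93 to -0.65; Defa20 and Mmp7 turned without WT littermate replicate 1 or villin-TLR4 replicate 2, Defa21 without the former. From the deposited ratios the median was -2.84, where Mmp7 and Defa21 have a WT littermate value on replicate 1 only. The cause of the other changes of sign was not tested.

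The count of genes called was 0 and became 20 with a replicate block, 4 with scan day as a block and 21 with array weights; the other alternatives gave 0. Among listed genes that are not members, 1 was called with the replicate block (Apoa1) and 2 with array weights (Apoa1 and Apoa4). Deviations of same-numbered arrays correlated at r of -0.15 and -0.21 across genes, so they gave no sign that the replicate numbers pair the samples. These r cannot settle it, since with 2 villin-TLR4 arrays the deviation of 1 mirrors that of the other. Of the 7 members 1, Defa3 at -3.98, was also called with the replicate block and none under the other alternatives; since the members were chosen on this contrast, that call supports nothing. Ang4 gave -1.47 there. No slide is named in the headers, so slide was not run as a block. Defa20, Defa21, Mmp7 and Ang4 lie near background on several arrays, where this scale understates differences.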
